A study of Rattus norvegicus with 25 samples.

Results

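The comparison described here sets the esophageal epithelium of 5 male F344 rats given N-nitrosomethylbenzylamine together with delta-tocopherol (labelled NMBA+Delta-T) against that of 5 male F344 rats given N-nitrosomethylbenzylamine alone (labelled NMBA). The 10 arrays were taken by their titles, rats 1 to 5 of each group, out of 25 arrays in all. Every rat of both groups received the carcinogen, so the contrast holds NMBA constant and differs by the tocopherol. A group on a normal diet without NMBA (Control, 5 rats) gives the untreated level, and the NMBA+Alpha-T and NMBA+Gamma enriched-T groups, 5 rats each, serve as further references. Total RNA was hybridised to 1-colour Agilent rat arrays, 1 array per rat. The labels state neither the dose nor the route or duration of any treatment.

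The groups shared no slide. NMBA+Delta-T rats 1 to 3 were on slide 1 and rats 4 and 5 on slide 2, while NMBA rats 1 to 4 were on slide 3 and rat 5 was alone on slide 4. Slide and group therefore cannot be told apart in the direct contrast. Only Control rat 1, on slide 2, links the tocopherol slides with slide 3, which holds Control rats 2 to 5. Spots well above background made up 74.7% to 77.7% of each NMBA+Delta-T array and 70.6% to 74.99% of each NMBA array, lowest in NMBA rats 3 and 2, and 0 spots were saturated. The epithelial keratins Krt4, Krt5, Krt13 and Krt14 were well above background on all 10 arrays. Muscle genes were measured too, and the summed signal of 29 of them ranged from 148 to 305 in NMBA+Delta-T rats and from 217 to 324 in NMBA rats (in units of each array's 75th percentile).

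NMBA is a nitrosamine that cytochrome P450 enzymes of the rat esophagus activate to species that alkylate DNA, and it induces squamous papillomas and carcinomas there. Delta-tocopherol is the common tocopherol with the fewest methyl groups on its chromanol ring, and is known as a radical scavenger and a trap for reactive nitrogen species. Inflammation accompanies esophageal carcinogenesis: interferon-gamma from lymphocytes induces the chemokines Cxcl9, Cxcl10 and Cxcl11, which draw further T and natural killer cells through their common receptor Cxcr3.

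Relative to rats given NMBA alone, rats that also had delta-tocopherol showed lower levels of part of the chemokine, interferon-induced, T cell, cytotoxic lymphocyte and MHC class II genes, and higher levels of a smaller and more mixed set led by Myh3 and Zbtb16. Of 12343 genes tested with limma, 307 (2.49%) passed an adjusted p of 0.05, 58 of them higher (0.47%) and 249 lower (2.02%) in NMBA+Delta-T. The median difference was 0.89 on the log2 scale among the genes that rose and -0.92 among those that fell, against -0.05 over all genes, and 113 of the 307 differed by at least 2-fold. In 194 of the 307, all 5 NMBA+Delta-T rats lay on one side of all 5 NMBA rats. Over all genes tested, 5.7% had groups that did not overlap, 1.7% with NMBA+Delta-T higher and 4% with NMBA+Delta-T lower. For 17 of the genes called, 1 group had no array well above background. A fold is then given as a lower bound, except where few arrays of the other group were well above background either.

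How many genes passed depended on single rats. Leaving out NMBA rat 1, 2 or 3 left 23, 16 or 13 genes, and leaving out NMBA+Delta-T rat 2 left 32. Without NMBA+Delta-T rats 3, 4 or 5 the counts were 102, 158 and 156, without NMBA rat 4 the count was 566, and without NMBA rats 2 and 3 together it was 0 (1552 genes at an unadjusted p under 0.05, limma). The sign of all 307 differences was kept in each of these fits. The 307 were picked from these same rats, and for the 194 without overlap leaving out rats cannot turn the sign. With slide as a fixed block, none of the 307 passed and 257 kept their sign. The median absolute difference was 0.47 against 0.91 without the block. In this fit the contrast passes through Control rat 1 and is set by NMBA+Delta-T rats 4 and 5 against NMBA rats 1 to 4, each relative to Control rats of the same slide. NMBA+Delta-T rats 1 to 3 and NMBA rat 5 do not enter the difference. The 1 gene called in that fit, the lipid phosphatase Plpp1 at 3.62 on the log2 scale, rested on Control rat 1, whose level was -1.92 while Control rats 2 to 5 lay between 1.43 and 1.82; without the block Plpp1 differed by 0.41 with an adjusted p of 0.665. Among the 51 named genes past the test, Icam1 and Arid3b passed with each of the 10 rats left out in turn, and 20 passed in at least 5 of these fits.

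**Figure D1:**
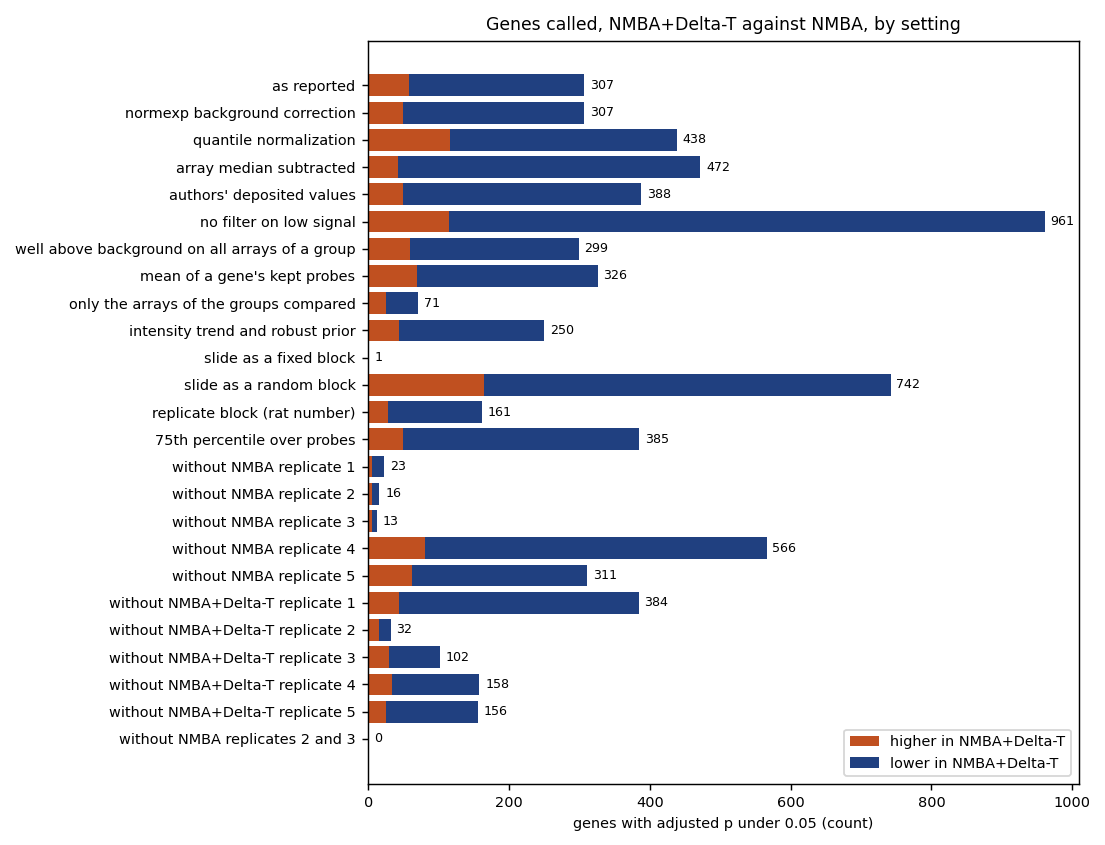
Number of genes with an adjusted p under 0.05 (horizontal axis, count) for NMBA+Delta-T against NMBA under each setting, with genes higher in NMBA+Delta-T stacked before genes lower. The 307 genes of the reported fit become 13 to 566 when a single rat is left out, 742 with slide as a random block and 1 with slide as a fixed block.

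The chemokines that signal through Cxcr3 were among the most lowered genes. The values below are log2 signal relative to the array's 75th percentile. Cxcl9 measured 0.49, -1.16, 0.10, -0.65 and -2.36 in NMBA+Delta-T rats 1 to 5, against 2.09, 1.39, 1.53, 0.37 and 2.05 in NMBA rats 1 to 5 and -2.06, -2.75, -2.32, -1.65 and -1.78 in Control rats 1 to 5. Every NMBA+Delta-T rat was lower than 4 of the 5 NMBA rats, and only NMBA+Delta-T rat 1 at 0.49 exceeded NMBA rat 4 at 0.37. Cxcl9 thus fell by 2.20 ± 0.51 (SE, n = 5 rats per group, limma adjusted p = 0.0297), to 0.217 times its level in NMBA rats, and its mean of -0.72 ± 1.12 (SD) in NMBA+Delta-T stood above the Control mean of -2.11 ± 0.44. Cxcl11 measured -3.11, -4.50, -3.29, -3.68 and -5.11 in NMBA+Delta-T rats 1 to 5, against -1.26, -2.09, -2.16, -2.94 and -1.34 in NMBA rats 1 to 5 and -6.02, -4.97, -4.87, -5.09 and -5.08 in Control rats 1 to 5. The groups did not overlap, and Cxcl11 fell by 1.98 ± 0.43 (adjusted p = 0.0266).

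Cxcl10 measured -1.82, -3.43, -2.25, -1.66 and -4.32 in NMBA+Delta-T rats 1 to 5, against -0.04, -0.57, -1.16, -1.89 and -0.63 in NMBA rats 1 to 5 and -5.56, -5.54, -4.78, -4.82 and -5.32 in Control rats 1 to 5. NMBA rat 4 again fell among the NMBA+Delta-T rats, and the difference of -1.84 ± 0.53 missed the threshold (adjusted p = 0.0557). The receptor Cxcr3, carried by activated T cells and natural killer cells, was at -2.91, -3.66, -3.63, -4.22 and -5.21 in NMBA+Delta-T rats and at -2.09, -2.44, -1.61, -3.70 and -2.09 in NMBA rats. NMBA rat 4 at -3.70 lay within the NMBA+Delta-T range, and the fall of 1.54 ± 0.42 passed narrowly, with an adjusted p of 0.05 as rounded. Ifngr1, a chain of the interferon-gamma receptor, fell by 0.47 ± 0.11 (adjusted p = 0.0297), with every NMBA+Delta-T rat at or under 2.04 and every NMBA rat at or over 2.20. Unlike the ligands, Ifngr1 was little raised in NMBA rats, with means of 2.37 in NMBA and 2.30 in Control. Control rats were at 2.15 to 2.47, above every NMBA+Delta-T rat. Of the 7 tested genes of the CXCR3 list, 4 passed the test, all lower, and the list's median difference was -1.54 against -0.05 over all genes. The study is known for reporting on this axis from the same rats, which makes the count no independent evidence. Without NMBA rat 1, 2 or 3 or NMBA+Delta-T rat 2 or 5, 0 of the 7 passed, while the median stayed between -1.87 and -1.22 over the 10 fits that leave out a rat.

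**Figure D2:**
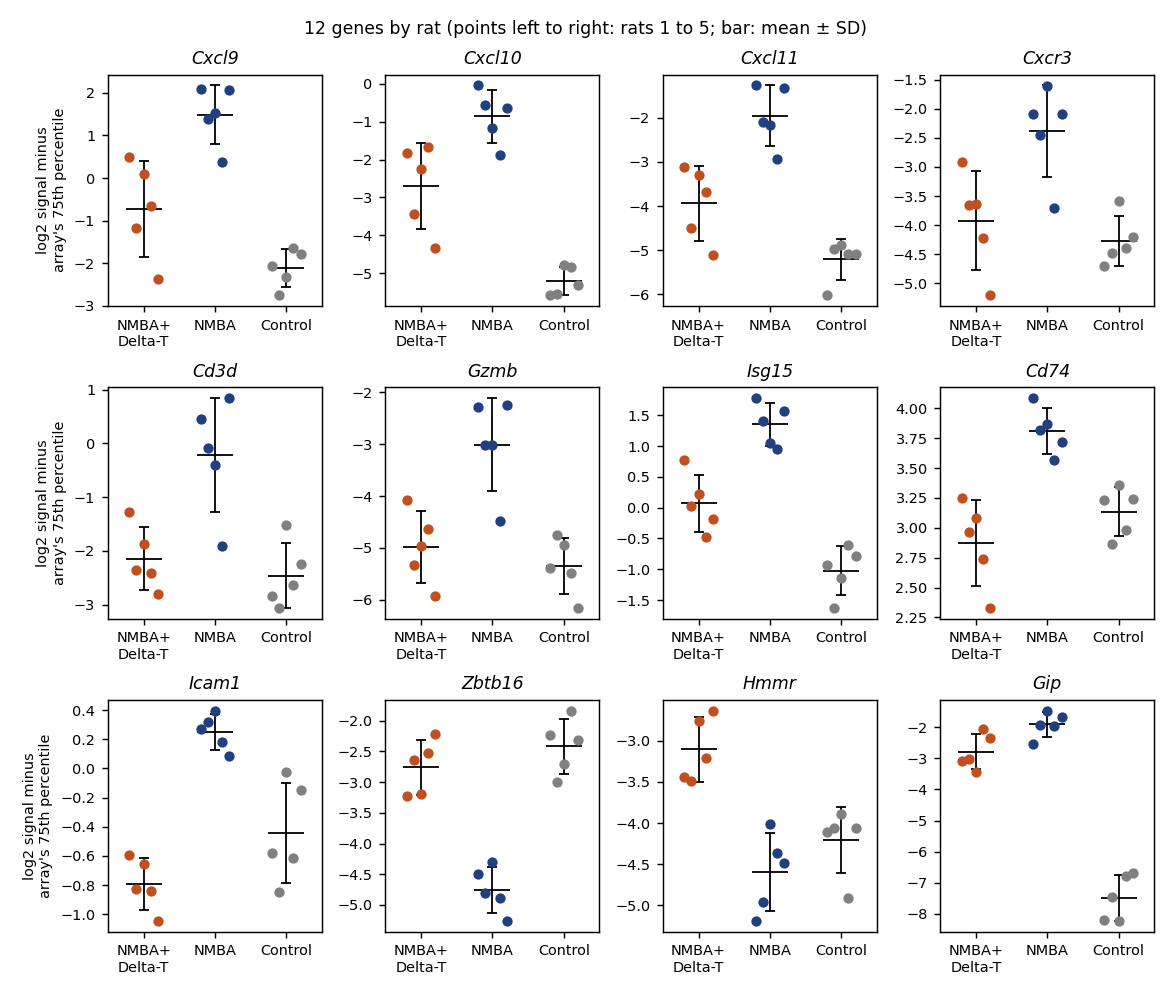
Log2 signal minus the array's 75th percentile (vertical axis) for 12 genes in NMBA+Delta-T, NMBA and Control rats, with 1 point per rat in the order of the rat numbers and a bar for the mean ± SD of 5 rats. NMBA rat 4 sits apart from the other NMBA rats for Cxcl9 at 0.37, Cxcr3 at -3.70, Cd3d at -1.91 and Gzmb at -4.48, and the NMBA+Delta-T and NMBA points do not overlap for Cxcl11, Isg15, Cd74, Icam1, Zbtb16 and Hmmr.

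The promoters of the 3 Cxcr3 ligands and of the interferon-induced genes Irf7 and Psmb8 are shown as members of the chemokine and interferon groups described here. Of these, all but Cxcl10 passed the test. Each runs from 250 bases before to 50 bases after the start site, from RefSeq on GRCr8, matched by symbol. Capitals mark matches to an interferon-stimulated response element (ISRE: GAAA on both sides of 2 free bases) or a gamma-activated site (GAS: TTC and GAA on either side of 3 free bases), searched on both strands; no ISRE match overlapped a GAS match in these promoters. Cxcl9 is at chr14:16006916-16007215 on the plus strand, Cxcl10 at chr14:15988816-15989115 on the plus strand, Cxcl11 at chr14:15973478-15973777 on the plus strand, Irf7 at chr1:205799974-205800273 on the minus strand and Psmb8 at chr20:4656982-4657281 on the minus strand.
Cxcl9: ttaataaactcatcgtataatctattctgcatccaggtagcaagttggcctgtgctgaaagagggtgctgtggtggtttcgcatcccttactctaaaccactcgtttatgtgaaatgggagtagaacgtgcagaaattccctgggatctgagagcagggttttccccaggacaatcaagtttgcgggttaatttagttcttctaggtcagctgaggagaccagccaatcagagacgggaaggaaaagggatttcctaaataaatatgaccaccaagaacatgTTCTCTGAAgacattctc
Cxcl10: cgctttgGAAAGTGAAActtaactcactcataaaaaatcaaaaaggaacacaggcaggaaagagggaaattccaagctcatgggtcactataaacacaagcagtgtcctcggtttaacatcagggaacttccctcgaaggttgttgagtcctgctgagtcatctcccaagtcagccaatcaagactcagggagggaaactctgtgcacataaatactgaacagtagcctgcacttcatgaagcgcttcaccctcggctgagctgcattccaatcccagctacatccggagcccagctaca
Cxcl11: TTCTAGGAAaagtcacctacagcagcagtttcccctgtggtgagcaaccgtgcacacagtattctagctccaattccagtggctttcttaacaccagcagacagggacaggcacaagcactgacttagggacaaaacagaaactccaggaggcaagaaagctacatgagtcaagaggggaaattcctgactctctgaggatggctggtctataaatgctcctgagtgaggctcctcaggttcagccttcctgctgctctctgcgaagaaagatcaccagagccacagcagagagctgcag
Irf7: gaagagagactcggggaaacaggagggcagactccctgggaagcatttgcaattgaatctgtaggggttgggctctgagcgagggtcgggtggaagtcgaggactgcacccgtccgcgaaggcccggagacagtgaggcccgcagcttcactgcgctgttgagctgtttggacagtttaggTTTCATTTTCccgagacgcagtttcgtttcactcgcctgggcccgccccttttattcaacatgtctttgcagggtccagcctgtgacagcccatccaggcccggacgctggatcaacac
Psmb8: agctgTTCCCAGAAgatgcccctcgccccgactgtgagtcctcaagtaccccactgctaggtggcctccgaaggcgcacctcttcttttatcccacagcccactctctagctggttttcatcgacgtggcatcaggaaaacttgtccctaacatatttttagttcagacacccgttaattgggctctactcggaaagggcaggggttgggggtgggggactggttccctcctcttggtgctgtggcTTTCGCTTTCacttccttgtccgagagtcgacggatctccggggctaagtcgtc
Counted from the start site, the Cxcl9 GAS match begins at 33, the Cxcl10 ISRE match at -243 and the Cxcl11 GAS match at -250. Irf7 has an ISRE match at -69, and Psmb8 has one at -4 and a GAS match at -245. The ISRE letters occur in 3.788% of 27457 promoters in the table and in 2.923% of the 10059 that belong to tested genes, against 21 of the 31 interferon-induced genes with a promoter there. For GAS the shares are 8.694% of all promoters and 7.019% of those of tested genes, against 11 of 31. An ISRE match stood in 6.373% of 204 promoters of genes that fell (13 promoters) and in 2.222% of 45 promoters of genes that rose (1 promoter). Of the 13, 4 belonged to the interferon-induced list. The called genes of the CXCR3, T cell, cytotoxic, MHC class II and NF-kB lists had 0 ISRE matches. The letters of a kB site (GGGA before and TTTCC after 1 free base, on either strand) were in 0.364% of all promoters and in 3 of 13 promoters of the NF-kB list. These are matches of letters only.

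Interferon-induced genes fell in part. Of 38 tested, 9 passed the test, all lower, 35 of 38 differences were negative, and the median was -0.65. Over all genes tested, 2.02% were called lower and 43.5% of differences were positive, and these shares also stand beside the lists below. Isg15 measured 0.77, 0.03, 0.21, -0.47 and -0.18 in NMBA+Delta-T rats 1 to 5, against 1.78, 1.40, 1.05, 0.95 and 1.57 in NMBA rats 1 to 5 and -0.92, -1.63, -1.14, -0.61 and -0.79 in Control rats 1 to 5. Isg15, a ubiquitin-like protein attached to other proteins after interferon exposure, had no overlap between the groups and fell by 1.28 ± 0.30 (adjusted p = 0.0297). Irf7 measured -0.89, -1.77, -1.04, -1.78 and -1.64 in NMBA+Delta-T rats 1 to 5, against 0.04, -0.45, -0.76, -0.64 and -0.21 in NMBA rats 1 to 5 and -1.49, -2.04, -1.71, -1.60 and -1.63 in Control rats 1 to 5. This transcription factor, which amplifies type I interferon, fell by 1.02 ± 0.20 (adjusted p = 0.0192), with NMBA+Delta-T rat 1 at -0.89 just under NMBA rat 3 at -0.76.

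The immunoproteasome subunit Psmb8 fell by 1.26 ± 0.29 (adjusted p = 0.0297) and the transcription factor Irf1 by 1.14 ± 0.30 (adjusted p = 0.0476). Irgm, Stat2, Dhx58 and Bst2 also passed, with falls between 1.01 (Irgm) and 0.66 (Bst2). Other well-known members did not pass, among them Mx1 at -1.05, Usp18 at -1.05, Oas1a at -1.25 and Rsad2 at -0.96, and Ifit2 was on the positive side at 0.41. Over the fits that leave out a rat, between 1 and 13 of the 38 passed, and the list median lay between -0.78 and -0.56. With slide as a fixed block the median was -0.74 and 0 passed.

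T cell genes had negative differences throughout. Of 24 tested, 9 passed, all lower, none of the others was positive, and the median was -1.14, although in only 1 of the 24 were the groups free of overlap. Cd3d measured -1.29, -2.36, -1.88, -2.42 and -2.81 in NMBA+Delta-T rats 1 to 5, against 0.45, -0.09, -0.40, -1.91 and 0.84 in NMBA rats 1 to 5 and -2.85, -3.07, -1.52, -2.63 and -2.24 in Control rats 1 to 5. Cd3d, a chain of the T cell receptor complex, fell by 1.93 ± 0.45 (adjusted p = 0.0297), and only NMBA rat 4 lay inside the NMBA+Delta-T range. The companion chains Cd3e and Cd247 fell by 1.91 ± 0.43 and 1.70 ± 0.37, and the cytotoxic co-receptor chain Cd8b by 1.71 ± 0.42 (adjusted p = 0.0297, 0.0283 and 0.0326). Cd3g, Lat, Il2rb, Cd5 and Cd2 also passed, with falls between 1.56 and 0.85. In bulk tissue, fewer cells of a type and less RNA per cell cannot be told apart.

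For cytotoxic lymphocytes, all 15 tested genes had a negative difference, 7 passed the test, and the median was -1.33. Gzmb measured -4.07, -5.33, -4.97, -4.63 and -5.93 in NMBA+Delta-T rats 1 to 5, against -2.29, -3.02, -3.01, -4.48 and -2.24 in NMBA rats 1 to 5 and -5.39, -4.76, -4.95, -5.48 and -6.17 in Control rats 1 to 5. Granzyme B, a protease that killer cells deliver into their targets, fell by 1.98 ± 0.45 (adjusted p = 0.0297). The granzymes Gzmc and Gzmm fell by 1.78 ± 0.38 and 1.67 ± 0.40, the lymphocyte cathepsin Ctsw by 1.90 ± 0.42, and the pore-forming perforin Prf1 by 1.44 ± 0.39 (adjusted p between 0.0252 and 0.0476). Klrb1a, a natural killer cell receptor, and the chemokine Xcl1 completed the 7, at -1.32 and -1.05. NMBA rat 4, with Gzmb at -4.48 and Gzmm at -3.47, was within the range of the NMBA+Delta-T rats.

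The list medians by rat show the same order. Each is the median of the log2 value minus the gene's mean over all 25 arrays. For T cell genes they were 0.38, -0.29, 0.18, -0.53 and -0.71 in NMBA+Delta-T rats 1 to 5, against 1.13, 0.83, 0.91, 0.09 and 1.32 in NMBA rats 1 to 5. NMBA rat 4 lay under NMBA+Delta-T rats 1 and 3, and 3 of the 5 NMBA+Delta-T values were within the Control range of -0.62 to 0.21. Summed over the list, T cell signal ranged from 2.17 to 3.66 in NMBA+Delta-T, from 2.86 to 8.04 in NMBA and from 2.16 to 3.55 in Control, and cytotoxic signal from 0.743 to 1.58 in NMBA+Delta-T, from 1.26 to 3.72 in NMBA and from 0.901 to 1.40 in Control. These lymphocyte lists had lower medians in the same group as the interferon and CXCR3 lists above. Whether they varied together from rat to rat, and their part in those differences, was not tested. Without NMBA rat 4, 17 of 24 T cell and 13 of 15 cytotoxic genes passed. The cytotoxic count was 0 without NMBA rat 3, 2 without NMBA rat 1, NMBA rat 2 or NMBA+Delta-T rat 2, and 3 to 7 without any 1 of the other rats. Without NMBA rat 1 or 3 the T cell count was 0, and without NMBA rat 2 or NMBA+Delta-T rat 2 it was 1.

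**Figure D3:**
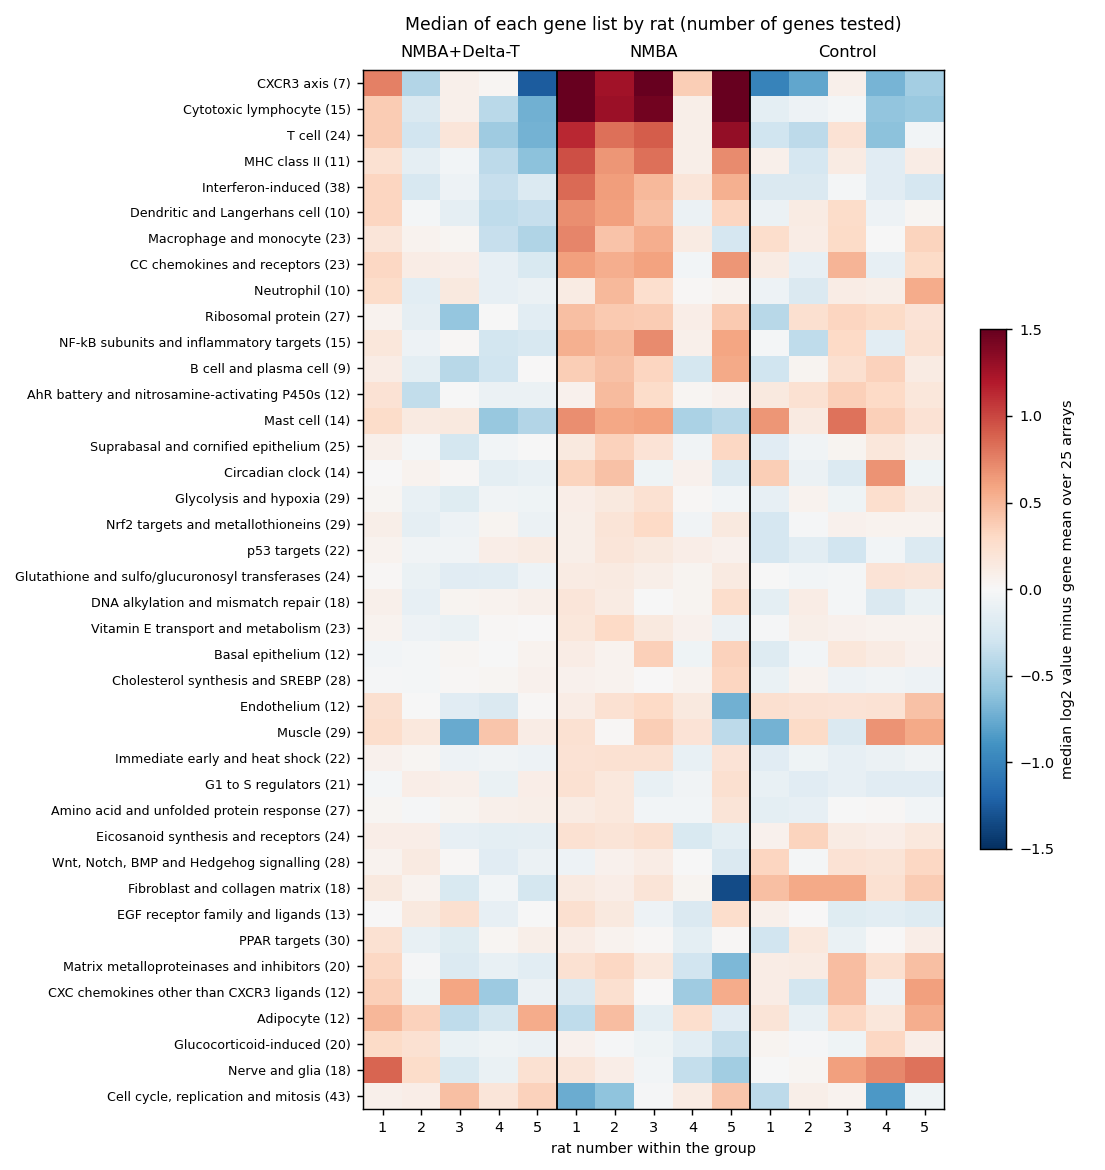
Median over each gene list (rows, number of genes tested in parentheses) of the log2 value minus the gene's mean over all 25 arrays, for each rat (columns) of NMBA+Delta-T, NMBA and Control; colours end at -1.5 and 1.5, and rows run from the lowest to the highest median difference. The CXCR3, cytotoxic and T cell rows are dark red in NMBA rats 1, 2, 3 and 5 and paler in NMBA rat 4 (0.37, 0.08 and 0.09).

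MHC class II genes, which present peptides to helper T cells, had 10 of 11 negative differences, with 4 past the test, all lower, and a median of -0.87. With 1 rat left out the count of falls was 0 without NMBA rat 1, 2 or 3, 8 without NMBA rat 4 and 2 to 7 without any 1 of the others. Cd74 measured 3.25, 2.96, 3.08, 2.74 and 2.33 in NMBA+Delta-T rats 1 to 5, against 4.09, 3.82, 3.87, 3.57 and 3.72 in NMBA rats 1 to 5 and 3.23, 2.87, 3.35, 2.98 and 3.24 in Control rats 1 to 5. Cd74, the invariant chain that escorts class II molecules, had no overlap and fell by 0.94 ± 0.18 (adjusted p = 0.0192), passing with every rat left out in turn except NMBA rats 1, 2 and 3. The class II loading chains RT1-DMa and RT1-DMb fell by 0.93 ± 0.20 and 0.95 ± 0.22, and the beta chain RT1-Db1 by 0.71 ± 0.16 (adjusted p = 0.0266, 0.0297 and 0.0297). For RT1-DMb, NMBA+Delta-T rats were between 0.94 and 1.35, against 2.12 to 2.44 in 4 NMBA rats, 1.28 in NMBA rat 4 and 1.19 to 1.49 in Control rats. Summed class II signal ranged from 18.9 to 29.1 in NMBA+Delta-T, from 32.1 to 52.9 in NMBA and from 24.3 to 31.8 in Control, so the NMBA+Delta-T and NMBA ranges did not meet. This was not particular to class II. Summed ribosomal protein signal was 354 to 536 in NMBA+Delta-T and 557 to 740 in NMBA. For the glycolysis list the ranges were 92.3 to 115 and 121 to 145.

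Among CC chemokines and their receptors, 3 of 23 passed, all lower (0 to 4 with 1 rat left out), with a median of -0.50. Ccl12 measured -6.69, -6.92, -6.63, -5.65 and -7.00 in NMBA+Delta-T rats 1 to 5, against -4.33, -4.22, -2.94, -4.65 and -5.26 in NMBA rats 1 to 5 and -7.03, -8.83, -5.30, -7.18 and -5.57 in Control rats 1 to 5. Ccl12, a monocyte attractant, fell by 2.30 ± 0.61 (adjusted p = 0.0476), without overlap, and was well above background on 2 NMBA+Delta-T and 5 NMBA arrays. Ccl5, which attracts T cells, was at -2.03 to -3.29 in NMBA+Delta-T rats and at -0.30 to -2.40 in NMBA rats, and fell by 1.58 ± 0.42 (adjusted p = 0.0475). Ccl1, a ligand of Ccr8, was well above background on 0 of 5 NMBA+Delta-T arrays and 4 of 5 NMBA arrays and was at least 3.62-fold lower in NMBA+Delta-T (adjusted p = 0.0308). Its neighbours on the list included Ccl11, which draws eosinophils, with a difference of 2.12 that did not pass the test. The other CXC chemokines had 0 of 12 past the test and a median of 0.07, and Cxcl14 stood at 1.69 (adjusted p = 0.15).

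Macrophage and monocyte genes had 3 of 23 past the test, all lower (0 to 3 with 1 rat left out), and a median of -0.51. The IgG receptor Fcgr3a fell by 1.64 ± 0.44 (adjusted p = 0.0476). The myeloid transcription factor Spi1 measured -3.12, -3.63, -3.82, -3.69 and -3.65 in NMBA+Delta-T rats against -2.49, -2.59, -2.14, -2.95 and -2.79 in NMBA rats and fell by 0.99 ± 0.20 (adjusted p = 0.0196). Control rat 1 was at -3.76 for Spi1 and Control rats 2 to 5 at -2.72 to -2.83, and with slide as a fixed block the Spi1 difference was -0.16. The scavenger receptor Marco was 2.35-fold lower in measured signal (adjusted p = 0.0476). It was well above background on 0 of 5 NMBA+Delta-T and 2 of 5 NMBA arrays, so this fold is no lower bound. Broad macrophage markers such as Cd68 at -0.58, Csf1r at -0.26 and Adgre1 at -0.12 did not pass. Summed macrophage signal ranged from 46.4 to 62.6 in NMBA+Delta-T, from 62.9 to 97.1 in NMBA and from 57.6 to 73.6 in Control.

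No gene of 4 other leukocyte lists passed, where 2.49% of all genes tested did, a share at which lists this short can hold none. The medians were -0.60 over 10 dendritic cell genes, -0.49 over 10 neutrophil genes, -0.40 over 9 B and plasma cell genes (0.13 with slide as a fixed block) and -0.26 over 14 mast cell genes. Clec9a, a marker of cross-presenting dendritic cells, differed by -1.38, and Fcrla, a B cell gene, by -1.14 (adjusted p = 0.228 and 0.0544). The mast cell protease Mcpt1 spanned -4.66 to 0.13 in NMBA+Delta-T rats and -5.14 to -0.68 in NMBA rats, a spread wider than its difference of 1.44.

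Of 15 tested NF-kB subunits and targets, 4 passed, all lower (1 to 5 with 1 rat left out), with a median of -0.45 and 14 of 15 negative. The study is known for reporting on NF-kB from the same rats as well, and this count is not independent evidence either. Icam1 measured -0.59, -0.83, -0.65, -0.84 and -1.05 in NMBA+Delta-T rats 1 to 5, against 0.27, 0.32, 0.40, 0.18 and 0.08 in NMBA rats 1 to 5 and -0.58, -0.85, -0.03, -0.62 and -0.15 in Control rats 1 to 5. Icam1, the endothelial and epithelial adhesion molecule that leukocytes bind, had no overlap between the groups and fell by 1.04 ± 0.19 (adjusted p = 0.0164), to 0.486 times its NMBA level. Its adjusted p stayed under the threshold with each of the 10 rats left out in turn, and its difference was -1.06 with slide as a fixed block (adjusted p = 0.663). Lymphotoxin beta (Ltb), a cytokine of lymphocytes, fell by 1.28 ± 0.34, the survival protein Bcl2a1 by 1.15 ± 0.29 and the NF-kB inhibitor Nfkbie by 0.61 ± 0.16 (adjusted p = 0.0476, 0.0362 and 0.0494). The subunit Rela differed by -0.32 (adjusted p = 0.466). Nfkb1 had no named probe, and Ptgs2 and Nos2 were well above background on 0 and 1 of 25 arrays and were not tested.

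Of 24 genes of eicosanoid synthesis and reception, 1 passed, the prostaglandin E2 receptor Ptger4, which rose. It measured -5.16, -5.12, -4.50, -5.53 and -5.56 in NMBA+Delta-T rats against -5.89, -5.99, -6.54, -7.30 and -6.42 in NMBA rats and was higher by 1.25 ± 0.30 (adjusted p = 0.0308). Only 2 NMBA arrays were well above background for it, and with slide as a fixed block the difference was 0.16.

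Each list with a gene that rose held only 1 such gene. Zbtb16 measured -3.23, -2.64, -3.20, -2.53 and -2.21 in NMBA+Delta-T rats 1 to 5, against -4.49, -4.81, -4.30, -4.89 and -5.26 in NMBA rats 1 to 5 and -2.23, -3.002, -2.70, -1.84 and -2.31 in Control rats 1 to 5. Zbtb16, a glucocorticoid-responsive transcriptional repressor also called PLZF, rose by 1.99 ± 0.42 (adjusted p = 0.0254), or 3.97-fold, with no overlap between the groups, and 3 of the 5 NMBA+Delta-T rats lay within the Control range. Its difference was 2.02 with slide as a fixed block, though not past the test there (adjusted p = 0.663). It was the only member past the test of 20 glucocorticoid-induced genes, whose median was 0.23, and it lost its call without NMBA rat 1, 2 or 3 or NMBA+Delta-T rat 2. Myh3 measured -3.35, -2.41, -4.02, -0.07 and -3.10 in NMBA+Delta-T rats 1 to 5, against -4.41, -5.86, -5.08, -4.98 and -5.94 in NMBA rats 1 to 5 and -4.49, -5.31, -5.86, -3.44 and -2.83 in Control rats 1 to 5. Myh3, the embryonic myosin heavy chain, rose by 2.66 ± 0.70 (adjusted p = 0.0468), with NMBA+Delta-T rat 4 far above the rest at -0.07. Of 29 muscle genes it was the only one past the test, and the median of the list was -0.07 (0.17 after quantile normalization and 1.16 with slide as a fixed block).

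Hmmr measured -3.44, -3.48, -2.75, -3.21 and -2.63 in NMBA+Delta-T rats 1 to 5, against -5.19, -4.96, -4.01, -4.36 and -4.49 in NMBA rats 1 to 5 and -4.10, -4.06, -3.89, -4.91 and -4.06 in Control rats 1 to 5. Hmmr, a hyaluronan receptor that works at the mitotic spindle, rose by 1.5 ± 0.35 (adjusted p = 0.0297), without overlap. Of 43 cell cycle genes it alone passed; 36 of the 43 differences were positive and the median was 0.37, while the proliferation marker Mki67 differed by 0.11 (adjusted p = 0.89; -0.09 after normexp background correction). The list medians by rat were 0.08 to 0.45 in NMBA+Delta-T and -0.75 to 0.42 in NMBA, low in NMBA rats 1 and 2. Among 21 regulators of the G1 to S step 0 passed, and Ccnd1, the cyclin that starts this step, differed by -0.14 (adjusted p = 0.692; 0.0015 after quantile normalization).

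Wnt16 measured 0.59, 0.94, 0.70, 0.84 and 1.15 in NMBA+Delta-T rats 1 to 5, against -1.17, -0.77, -0.19, -0.38 and 0.28 in NMBA rats 1 to 5 and -0.21, -0.26, 0.51, -0.73 and 0.11 in Control rats 1 to 5. Wnt16, a secreted signalling protein, rose by 1.29 ± 0.30 (adjusted p = 0.0297) without overlap, and differed by 1.73 with slide as a fixed block. Ctxn3, a small membrane protein of the cortexin family, rose by 1.81 ± 0.48 (adjusted p = 0.0459). The transcription factor Nfic and the cohesin regulator Pds5a each rose by 1.48, with standard errors of 0.31 and 0.33, and each was well above background on 1 of 5 NMBA arrays. With slide as a fixed block these differences were 0.35 for Nfic and 0.37 for Pds5a. Gria2, a glutamate receptor subunit, was at least 1.83-fold higher and the ubiquitin ligase Hecw2 at least 1.74-fold higher, since neither was well above background on any NMBA array. Gria2 was the only one of 18 nerve and glia genes past the test (median 0.23). Acot1, an acyl-CoA thioesterase and the only one past the test among 30 PPAR targets (median 0.03), rose by 0.80 ± 0.20 (adjusted p = 0.0375).

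**Figure D4:**
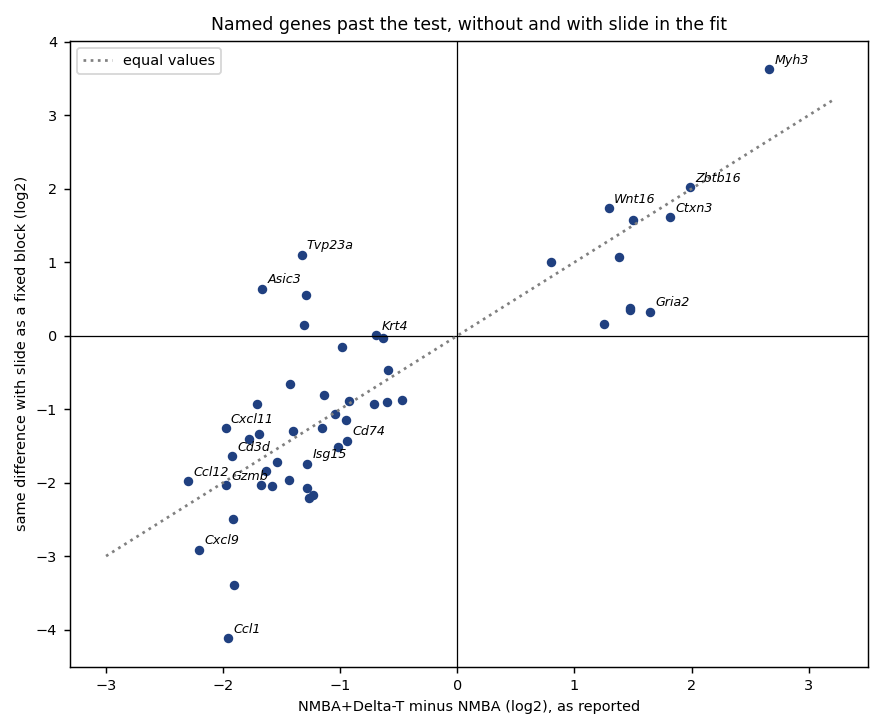
Difference of NMBA+Delta-T minus NMBA in log2 units for the 51 named genes past the test, as reported (horizontal axis) and with slide as a fixed block (vertical axis); the dotted line marks equal values and each point is 1 gene. Zbtb16 (1.99 and 2.02), Gzmb (-1.98 and -2.03) and Icam1 (-1.04 and -1.06) lie near the line, while Tvp23a (-1.33 and 1.1) and Asic3 (-1.67 and 0.64) change sign. The vertical values draw only on NMBA+Delta-T rats 4 and 5, NMBA rats 1 to 4 and the Control rats.

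For several of the remaining falls, Control rat 1 also lay below Control rats 2 to 5. Arid3b, a DNA-binding protein, measured -7.27, -7.69, -7.04, -7.64 and -6.77 in NMBA+Delta-T rats against -6.08, -5.66, -5.27, -5.91 and -6.34 in NMBA rats and fell by 1.43 ± 0.24 (adjusted p = 0.0134, the smallest of all genes). It was well above background on only 1 NMBA+Delta-T array and on 5 NMBA arrays. Control rat 1 on slide 2 lay below the mean of Control rats 2 to 5 on slide 3 (difference -0.82), and with slide as a fixed block the difference between the groups was -0.65. The same Control difference was -1.94 for Tvp23a, a Golgi membrane protein, -1.44 for C3h20orf144 and -1.33 for Prm3, a protamine. Tvp23a and Prm3 fell by 1.33 ± 0.30 and 1.29 ± 0.29 (adjusted p = 0.0297 and 0.0297). C3h20orf144 was 2.48-fold lower in measured signal (adjusted p = 0.0169). It was well above background on 0 NMBA+Delta-T arrays and 1 NMBA array, so this fold is no lower bound. Tvp23a was well above background on 1 NMBA+Delta-T and 2 NMBA arrays. With slide as a fixed block, Tvp23a, C3h20orf144 and Prm3 differed by 1.1, 0.14 and 0.56. Asic3, an acid-sensing channel, differed by -1.67 ± 0.43 (adjusted p = 0.0402), with a Control difference of -2.50. It was well above background on 0 NMBA+Delta-T arrays and 1 NMBA array, so no bound on its fold is given. The toll-like receptor gene Tlr10 fell by 1.40 ± 0.36 (adjusted p = 0.0402), with a Control difference of -0.69, and differed by -1.30 with slide as a fixed block. Among immune genes past the test the Control difference also varied. It was 0.06 for Cxcl9, 0.12 for Isg15, -0.05 for Gzmb and 0.12 for Cd74, but -1.36 for Cd8b, -1.02 for Cxcl11, -0.97 for Spi1, -0.54 for Cxcr3, -0.48 for Cd3d, 0.84 for Ctsw and 1.82 for Ccl1.

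The step from Control could also be read within slides. The difference with slide as a fixed block is the slide 2 step minus the slide 3 step, so these steps are no separate evidence. On slide 2, NMBA+Delta-T rats 4 and 5 exceeded Control rat 1 by 0.55 for Cxcl9, while on slide 3 NMBA rats 1 to 4 exceeded Control rats 2 to 5 by 3.47. For Isg15 these steps were 0.60 on slide 2 and 2.34 on slide 3, and for Gzmb 0.10 and 2.14. Steps were less far apart for Cxcl11, at 1.63 on slide 2 and 2.89 on slide 3, for Cxcl10, at 2.57 and 4.201, and for Cd8b, at 0.93 and 1.86. For Gip the slide 2 step of 6.01 exceeded the slide 3 step of 5.33. Zbtb16 differed from Control by -0.14 on slide 2 and by -2.16 on slide 3. The slide 2 step rests on 1 Control rat, so its error could not be estimated within the slide. It also leaves out NMBA+Delta-T rats 1 to 3 on slide 1. Their mean lay above that of rats 4 and 5 by 1.32 for Cxcl9, 0.66 for Isg15, 0.49 for Gzmb, 0.76 for Cxcl11 and 1.12 for Cd8b. For Zbtb16 this difference was -0.65, and for Gip rats 1 to 3 also lay lower.

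For genes of the squamous epithelium the differences depended on the scaling. Krt4, a keratin of the upper esophageal layers, was at 4.07 to 4.39 in NMBA+Delta-T rats and 4.74 to 5.09 in NMBA rats and fell by 0.69 ± 0.15 (adjusted p = 0.0283), but Control rat 1 was also low, by -0.69 relative to Control rats 2 to 5, and the difference was 0.0099 with slide as a fixed block. It was the only one of 25 suprabasal genes past the test (median -0.23, and 0.0041 after quantile normalization). Krt13 differed by -0.62 and Krt14 by -0.55 (adjusted p = 0.0723 and 0.0701), and Krt5 by -0.20 (adjusted p = 0.49). The 27 ribosomal protein genes all had a negative difference, 14 of them without overlap, although 0 passed; their median of -0.47 became -0.06 after quantile normalization and 0.30 with slide as a fixed block. Gapdh differed by -0.52 (adjusted p = 0.154).

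These genes are among the brightest on the array. With the genes ordered by mean signal into 10 groups of equal size, the median difference was -0.20 in the dimmest group, 0.05 in group 5 and -0.24 in the brightest, where 30 genes fell and 0 rose. Control rat 1 minus Control rats 2 to 5 followed the same shape, with -0.55, 0.01 and -0.34. After quantile normalization the medians of the NMBA+Delta-T contrast lay between -0.03 and 0.04 in every group of genes. The part of this shape in the calls was not tested.

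**Figure D5:**
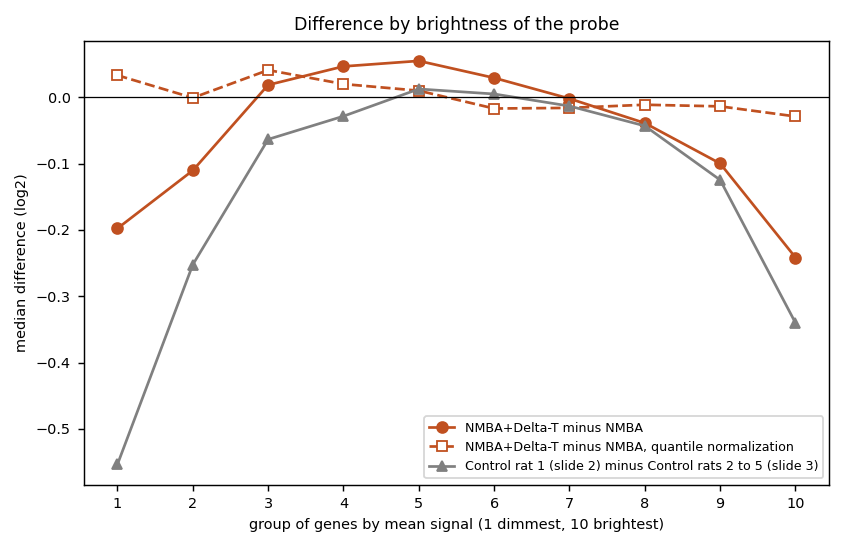
Median log2 difference (vertical axis) over 10 equal groups of genes ordered by mean signal, from the dimmest (1) to the brightest (10), for NMBA+Delta-T minus NMBA, the same after quantile normalization, and Control rat 1 minus Control rats 2 to 5. The first and the last of these bend down at both ends, to -0.20 and -0.24 and to -0.55 and -0.34.

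For genes of the response to the carcinogen itself, the counts past the test stand beside 2.49% over all genes tested. At that share, lists of this size hold few called genes or none. Mgmt, which removes the methyl group that nitrosamines leave on guanine, was at 0.22, -0.11, 0.01, 0.32 and 0.26 in NMBA+Delta-T rats, 0.81, 0.86, 0.54, 0.63 and 0.84 in NMBA rats and -0.07, -0.27, -0.19, -0.02 and 0.01 in Control rats. It fell by 0.59 ± 0.16 (adjusted p = 0.0476), without overlap, and was the only one of 18 alkylation and mismatch repair genes past the test (median -0.15). Of 22 p53 targets 0 passed (median -0.15), and the cell cycle inhibitor Cdkn1a differed by -0.43 (adjusted p = 0.0918). Gip measured -3.09, -3.01, -3.43, -2.05 and -2.35 in NMBA+Delta-T rats 1 to 5, against -2.55, -1.91, -1.47, -1.95 and -1.66 in NMBA rats 1 to 5 and -8.21, -7.47, -8.24, -6.79 and -6.70 in Control rats 1 to 5. Gip, a hormone of intestinal K cells, was thus high in both NMBA groups against Control and differed by -0.88 ± 0.34 between them (adjusted p = 0.142). Adm2, a calcitonin-family peptide, fell by 0.63 ± 0.16 (adjusted p = 0.0381) and was the only one of 27 amino acid and unfolded protein response genes past the test; with slide as a fixed block it differed by -0.03.

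No tested gene of the lists for oxidants, drugs and vitamin E passed. Over all genes tested 2.49% passed, and at that share lists of this size can hold none. The counts were 0 of 29 Nrf2 targets and metallothioneins (median -0.16), 0 of 24 glutathione and other conjugating transferases (median -0.15), 0 of 12 genes of the Ahr battery and nitrosamine-activating P450s (median -0.34, and -0.03 after quantile normalization), and 0 of 23 genes of vitamin E transport and metabolism (median -0.14). Nqo1, a quinone reductase and classic Nrf2 target, differed by -0.21 (95% interval -0.49 to 0.08), Gsr, which regenerates glutathione, by 0.61 (0.25 to 0.96, adjusted p = 0.0544), and Cyp2a3, a P450 known to activate nitrosamines, by -0.87 (-1.68 to -0.06, adjusted p = 0.212). In the vitamin E list the largest difference was that of the lipase Lpl, at 1.03 (adjusted p = 0.0956). Also without a member past the test were the lists for cholesterol synthesis (28 genes), circadian clock (14), immediate early and heat shock genes (22), basal epithelium (12), EGF receptor family (13), fibroblast matrix (18), adipocyte (12), endothelium (12), matrix metalloproteinases (20), glycolysis (29) and Wnt, Notch, BMP and Hedgehog signalling (28), with medians between -0.22 and 0.19.

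Delta-tocopherol was then compared with the 2 other tocopherol preparations under NMBA. The tocopherols differ in the number of methyl groups on the chromanol ring, and whether their doses matched is unknown here. Limma called 0 of 12343 genes for NMBA+Delta-T against NMBA+Alpha-T (571 at an unadjusted p under 0.05, smallest adjusted p = 0.833) and 0 for NMBA+Delta-T against NMBA+Gamma enriched-T (503, smallest adjusted p = 0.949), and 0 in each alternative run. The groups did not overlap for 0.664% and 0.77% of genes. These contrasts share the NMBA+Delta-T rats with each other, and part of their slides with the references: slide 1 holds NMBA+Delta-T rats 1 to 3 with all alpha rats, and slide 2 holds NMBA+Delta-T rats 4 and 5 with all gamma-enriched rats. Within slide 1 and within slide 2, 0 genes passed as well (340 and 511 at an unadjusted p under 0.05).

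Cxcl9 measured 0.49, -1.16, 0.10, -0.65 and -2.36 in NMBA+Delta-T rats, -0.32, 0.03, -0.58, -1.41 and 0.48 in NMBA+Alpha-T rats and 0.25, -2.25, -1.68, -0.22 and 0.03 in NMBA+Gamma enriched-T rats. Its difference was -0.36 against alpha (95% interval -1.42 to 0.70) and 0.06 against gamma-enriched (-1.002 to 1.11), intervals that still allow a change of 2-fold in a direction. Icam1 was held more tightly, at -0.15 (-0.54 to 0.23) and 0.10 (-0.29 to 0.48), and so was Cd74, at -0.19 (-0.56 to 0.19) and 0.12 (-0.25 to 0.50). Against alpha, list medians were -0.06 for T cell genes, 0.12 for cytotoxic genes and 0.00 for interferon-induced genes, and against gamma-enriched they were 0.26, 0.20 and 0.04 for these lists.

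Zbtb16 measured -3.23, -2.64, -3.20, -2.53 and -2.21 in NMBA+Delta-T rats, -3.34, -4.67, -4.57, -5.73 and -3.48 in NMBA+Alpha-T rats and -2.33, -1.69, -4.36, -2.54 and -2.18 in NMBA+Gamma enriched-T rats. All NMBA+Delta-T rats were higher than all alpha rats, by 1.60 (0.72 to 2.47), but this did not pass over all genes (adjusted p = 0.833), and the difference from gamma-enriched was -0.14 (-1.02 to 0.74). Wnt16 differed by 1.06 from alpha (0.45 to 1.68, adjusted p = 0.833) and by 0.39 from gamma-enriched (-0.23 to 1.003, adjusted p = 0.949). Myh3 was 1.96 above alpha (0.51 to 3.40) and 1.98 above gamma-enriched (0.53 to 3.43), with adjusted p of 0.983 and 0.949.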

How the data were processed

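The scanner files hold spot brightness as fluorescence intensity, with the background subtracted array by array and no scaling across arrays, per the file headers, which name Agilent Feature Extraction 11.5.1.1. Version 10.7 is named in the submitters' processing notes. The deposited table of values is on a log2 scale, and its columns followed their own arrays with the 75th percentile near 0. No columns belonged to other samples (0 columns). The design's own annotation uses rn4, and symbols therefore came from RefSeq accessions on GRCr8: of 30367 non-control probes, 18355 had 1 symbol, 0 several and 12012 none.

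From the scanner files, spots carrying a non-uniformity or population outlier mark were left out, replicate spots of a probe were averaged as log2 processed signal, and each array's 75th percentile over non-control spots was subtracted. Probes well above background on at least 5 of 25 arrays were kept, and each gene took its kept probe of highest mean signal (12343 genes, 2035 of which had more than 1 such probe). All 25 arrays entered 1 fit of group means in limma 3.58.1 in R 4.3.3 (20 residual and 3.09 prior degrees of freedom), tested two-sided and adjusted by Benjamini-Hochberg within each contrast at 0.05. Standard errors and 95% intervals are limma's, with n = 5 rats per group. The number of arrays limits the precision. A fold is a lower bound where a group had no array well above background: the means of the other group are set against, on each dim array, the higher of its own signal and the lowest signal well above background. The fit was tested on simulated data.

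The mean signal column was not used here, so the normexp alternative took the median signal and median background with an offset of 50. Other alternatives were quantile and median scaling, the deposited values, the filter, the choice of probe, the arrays fitted, an intensity trend, slide and rat number as blocks, and each rat left out. Setting the percentile over probes and leaving out NMBA rats 2 and 3 together were added after seeing the data. Named genes were the 10 largest rises and 10 largest falls among called genes without overlap, up to 4 called members of each of 40 lists (978 listed genes, 811 tested; where none passed, up to 2 as values), and a set of 20 genes of earlier interest. The remaining called members of a list, and Plpp1, were named after their values were seen. The comparison, lists and genes were chosen with earlier results of these data known. Some genes that passed these rules are not reported here.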

Additional observations from a re-analysis of the deposited data

Results flagged for a closer look

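Among 212 groups of 5 rats checked, 1 for each named gene in NMBA+Delta-T and in NMBA, 13 held a rat whose gap to the nearest other rat of its group was over 0.71 of the group's whole range. Chance alone flags about 1 in 20 such groups. The values are log2 signal relative to the array's 75th percentile.

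In NMBA+Delta-T, rat 1 stood apart for Asic3 at -7.38 (nearest -8.33) and Spi1 at -3.12 (nearest -3.63). Rat 3 was low for the heat shock protein Hspb1 at 4.01 (nearest 4.43), the AP-1 subunit Jund at 1.88 (nearest 2.40) and the basal keratin Krt14 at 4.11 (nearest 4.38). Rat 4 was high for Ccl12 at -5.65 (nearest -6.63).

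In NMBA, 6 of the 7 such values belonged to rat 4. It was low for Gzmm at -3.47 (nearest -1.94), RT1-DMb at 1.28 (nearest 2.12), Cd79b at -6.76 (nearest -6.03) and C3h20orf144 at -6.23 (nearest -5.59), and high for the glutathione transferase Gsto1 at 2.91 (nearest 2.38) and the Notch target Hes1 at 0.85 (nearest -5.45). NMBA rat 5 was low for the phospholipid transfer protein Pltp at -0.55 (nearest 0.61).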

How the results depend on the processing

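The 307 genes called for NMBA+Delta-T against NMBA became 472 (43 higher and 429 lower) with the array median subtracted, 438 (116 and 322) after quantile normalization, 961 of 15437 without a filter, 71 with only the arrays of both groups, 742 with slide as a random block (consensus correlation -0.0311), 1 with slide as a fixed block, 0 without NMBA rats 2 and 3, and 13 to 566 with 1 rat left out. With rat number as a replicate block the count was 161, but the numbers do not pair the rats: same-numbered rats correlated at -0.0916 to 0.274, 2 of 5 pairs over 0.1, and 1 of 5 NMBA+Delta-T rats correlated best with its own number. The other settings gave 250 to 388 genes. Among these, normexp background correction also gave 307, but only 177 were among the 307 reported. The median absolute difference of the reported genes was 0.63 there, against 0.91. Of 51 named genes past the test, 37 stayed past it after normexp background correction, 46 after quantile normalization and 0 with slide as a fixed block. Against alpha and gamma-enriched, every setting gave 0 genes, 340 to 1088 and 293 to 907 at an unadjusted p under 0.05.

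Signs turned with slide as a fixed block, where the contrast rests on Control rat 1, for Asic3 (0.64), Tvp23a (1.1), C3h20orf144 (0.14), Prm3 (0.56) and Krt4 (0.0099) among the genes called. Among those not called the values were 0.34 for Cd79b, 0.58 for Perp, -0.20 for Rrm2b, -0.13 for Gclm, 0.17 for Cyp2f4, 0.24 for Msmo1, 0.11 for Mvd, 0.47 for Hspb1, 0.12 for Krt14, 0.21 for Krt13, -0.72 for Fn1, -0.12 for Fbn1, -0.88 for Adipoq, -1.61 for Cidec, -0.69 for Adamts1, 0.0090 for Pkm, 0.46 for Gapdh, -6.02 for Hes1, 0.0339 for Rps15, 0.68 for Gip, 0.0373 for Nqo1 and 0.38 for Cdkn1a. Quantile normalization turned Perp (0.0036), Ccnd1 (0.0015) and Nqo1 (0.0327), and Mki67 turned after normexp (-0.0929) and without NMBA+Delta-T rat 4 (-0.0187) or 5 (-0.0522), with a range of -0.0522 to 0.354 over the fits that leave out 1 rat. The cause was not tested.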
